A study of Homo sapiens with 24 samples.

Results

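NF-kB is a family of transcription factors that switch on inflammatory, survival and adhesion genes. Described here are 10 genes of this pathway in SBC-3 cells, an established line from a human small cell lung cancer: the subunit genes NFKB1, NFKB2 and RELB, the inhibitor genes NFKBIA and NFKBIE, and the response and feedback genes TNFAIP3, BIRC3, ICAM1, TNFAIP2 and IER3. They were chosen by name, with earlier results of these data known, and are 10 of the 60605 genes in the count tables. Poly(A) RNA was sequenced 72 h after reverse transfection of the cells with Lipofectamine RNAiMAX and oligonucleotides at 10 nM. In the small interfering RNA (siRNA) arm, SFPQ was targeted by siSFPQ-2 or siSFPQ-3 and NONO by siNONO-3 or siNONO-4, with siCtrl as the control. In the antisense oligonucleotide (ASO) arm, NEAT1 was targeted by ASO-NEAT1-1047 or ASO-NEAT1-1473, with ASO-Ctrl as the control. Each of the 8 groups had 3 libraries, all from this 1 cell line and without any added stimulus in the labels. SFPQ and NONO are RNA-binding proteins and NEAT1 is the long noncoding RNA on which the nuclear bodies called paraspeckles assemble. The study asked how these components act on the synthesis of microRNA precursors, and the same libraries give the level of every other polyadenylated RNA. Whether the replicates are separate cultures is not in the labels, and p-values therefore rest on a spread between samples that may be technical.

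In resting cells, NF-kB dimers are held in the cytoplasm by inhibitors of the IkB family. In the canonical route, signals from receptors lead to phosphorylation and destruction of IkB, and dimers containing p50, made from the NFKB1 precursor, and RELA enter the nucleus. In the noncanonical route, the NFKB2 precursor p100 is processed to p52, which pairs with RELB. NF-kB induces several genes of its own pathway, among them NFKBIA and TNFAIP3, whose products shut the signal down again.

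The gene starts of several of these genes carry a match to the sequence motif that NF-kB dimers bind, which is shown first as a description. RefSeq promoter windows (GRCh38.p14, from 250 bases before to 50 bases after a gene start) were at hand for 7 of the 10 genes, with 10 windows in all. RELB, NFKBIE and IER3 had none. Both strands were searched for the NF-kB consensus, a motif of 10 bases, which occurred in 5.91% of all 35116 windows and in at least 1 window of 7.09% of all 27305 gene symbols. It occurred in NFKB1, NFKB2, NFKBIA, TNFAIP3 and BIRC3. ICAM1 and TNFAIP2 had no match, which says only that these letters are not in these windows. A relaxed form of the motif occurred in 17.4% of all windows and was found in the same 5 genes. The sequences below run 5′ to 3′ along the strand of the gene, with the matched bases in capitals. The printed matches of NFKBIA, TNFAIP3 and BIRC3 read as the consensus on the other strand.
NFKB1: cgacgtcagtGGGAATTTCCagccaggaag
NFKB2, middle start: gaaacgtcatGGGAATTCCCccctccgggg
NFKB2, last start: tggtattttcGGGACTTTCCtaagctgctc
NFKBIA: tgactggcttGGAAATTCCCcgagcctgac
TNFAIP3, distal: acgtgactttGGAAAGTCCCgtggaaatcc
TNFAIP3, proximal: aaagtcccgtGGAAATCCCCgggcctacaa
BIRC3: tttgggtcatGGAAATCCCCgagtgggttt
The NFKB1 sequence lies at chr4:102501300-102501329 (plus strand), with the match from 49 to 40 bases before the start. The NFKB2 sequences lie at chr10:102394461-102394490 and chr10:102395674-102395703 (plus strand), upstream of the middle and the last of its 3 starts. The match at the middle start also reads as the consensus on the other strand and overlaps a further match shifted by 1 base. The NFKBIA sequence lies at chr14:35404811-35404840 (minus strand), with the match 81 to 72 bases before the start. The TNFAIP3 sequences lie at chr6:137867182-137867211 and chr6:137867194-137867223 (plus strand) and share bases. The BIRC3 sequence lies at chr11:102317275-102317304 (plus strand), further upstream, with the match 199 to 190 bases before the start. Further matches in NFKB2 and BIRC3 are not printed. A match is a description of the letters and not a measured binding site.

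Total counts ran from 4243196 to 14886353 per library, and from 4243196 to 9747514 in the siSFPQ libraries against 9999025 to 13525528 in siCtrl. Levels are given in CPM, read counts divided by the library size after TMM correction for library composition. SFPQ RNA was at 1223 CPM in siCtrl and at 208 and 223 CPM in siSFPQ-2 and siSFPQ-3, and NONO RNA was at 399 CPM in siCtrl and at 69.2 and 70.1 CPM in siNONO-3 and siNONO-4. NEAT1 RNA was at 297 CPM in ASO-Ctrl and at 298 and 206 CPM in the libraries labelled ASO-NEAT1-1047 and ASO-NEAT1-1473, and neither difference passed the test. Of the markers of small cell lung cancer, YAP1 (407 CPM), SYP (17.2 CPM) and NEUROD1 (4.62 CPM) were detected in siCtrl, while POU2F3, INSM1, CHGA and NCAM1 were under 1 CPM in every group. Mitochondrially encoded RNA was 9.59 to 11.6% of counts in the siSFPQ libraries and 7.63 to 9.07% in siCtrl. Markers of immune, endothelial, liver and astrocyte cells, 12 genes together, summed to 0.894 to 1.68 CPM in siCtrl, 2.81 to 8.6 in siSFPQ-2 and 3.81 to 4.53 in siSFPQ-3, with 3 of them without a read in each siSFPQ group and PTPRC, the marker of all white blood cells, at 9 reads in all 24 libraries. The part of these differences in the results was not tested.

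Knockdown of SFPQ was followed by higher RNA of nearly all of these genes. TNFAIP3, NFKB2 and ICAM1 rose most, 13.1-fold, 10.5-fold and 10.4-fold, RELB rose 6.79-fold, and NFKB1, NFKBIA and NFKBIE rose between 2.84-fold and 3.28-fold. IER3 rose 1.71-fold, TNFAIP2 fell, and BIRC3 was too low to test. These changes are the mean of both siRNAs minus siCtrl in a single edgeR quasi-likelihood fit of all 24 libraries, and genes with an adjusted p (Benjamini-Hochberg, over the 15869 genes tested) under 0.05 are called. Of the 9 genes tested, 8 rose and 1 fell, and 70.4% of all tested genes were called in this comparison, 34.7% higher and 35.8% lower. The median log2 fold change was 1.72 over the 9 genes and -0.02 over all genes tested. Since the genes were chosen with earlier results of these data known, setting them beside all genes is a description only. The 9 genes had at least 23 reads in every siCtrl library, and thus did not enter the test only through the knockdown. In bulk RNA, fewer cells making an RNA and less RNA per cell cannot be told apart.

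**Figure D1:**
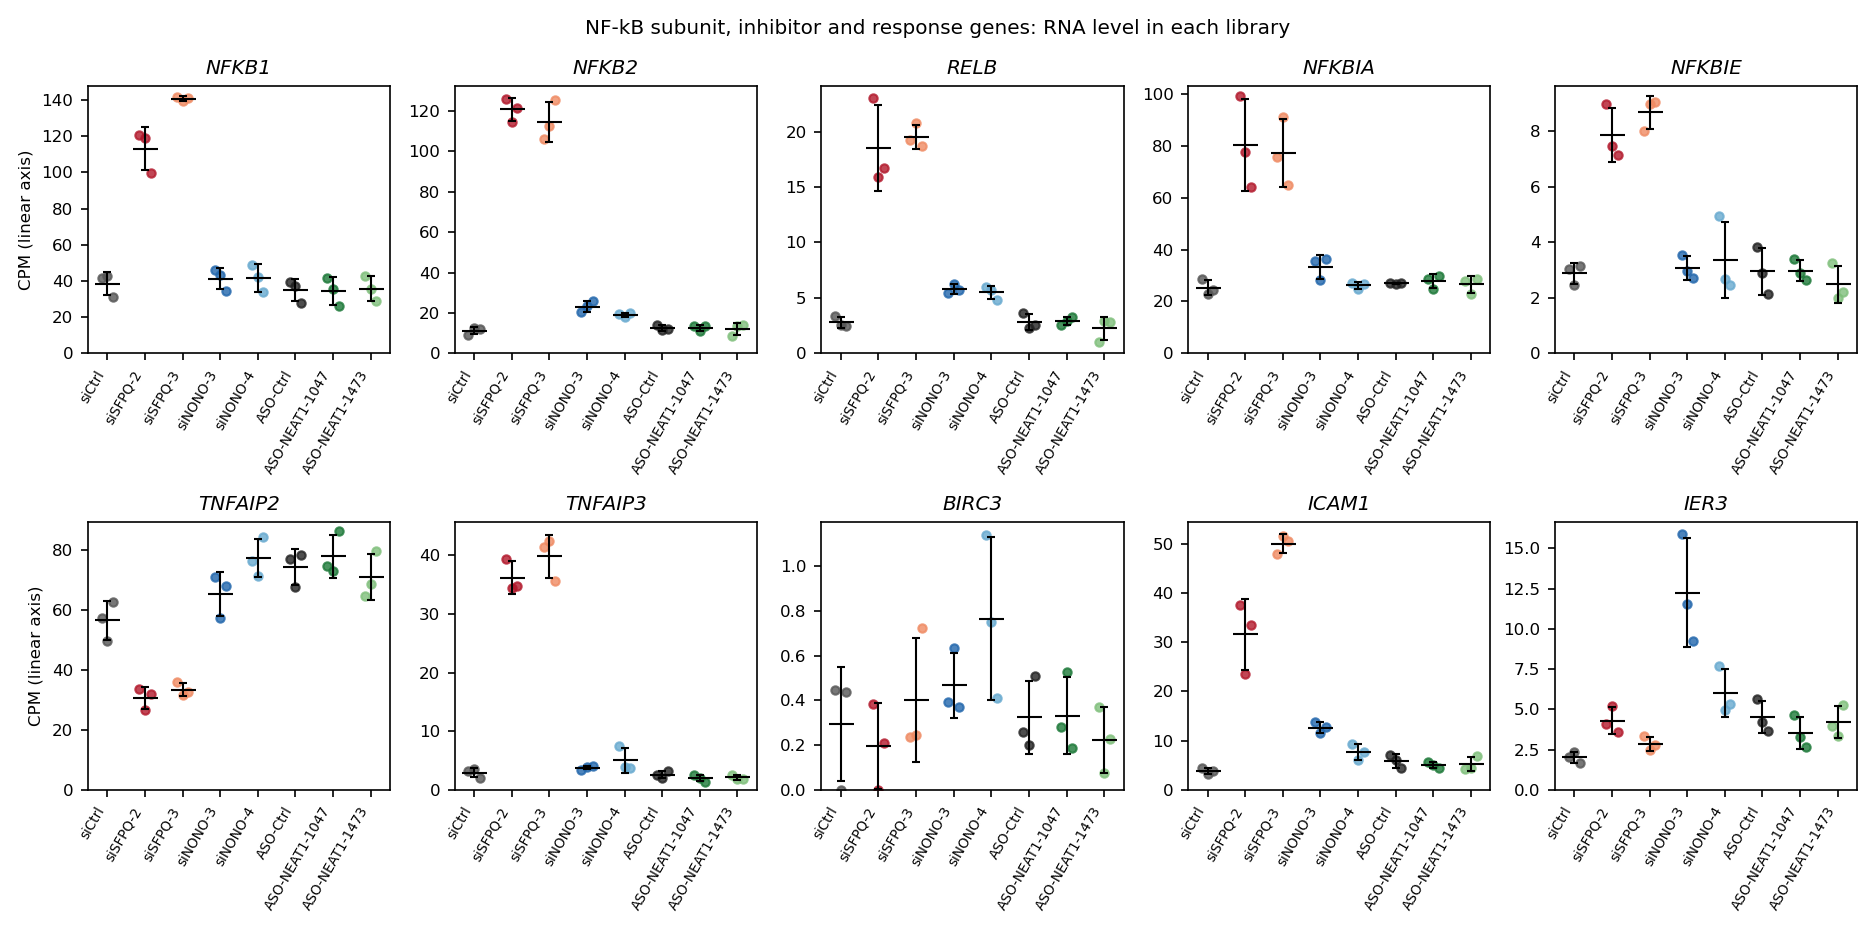
RNA level of the 10 genes in each library in CPM (linear axes that start at 0, 1 panel per gene). Points are libraries, and the bar and whiskers are the mean and SD of the 3 libraries of a group. The siSFPQ points stand above all other groups for NFKB1, NFKB2, RELB, NFKBIA, NFKBIE, TNFAIP3 and ICAM1 and below them for TNFAIP2, while IER3 is highest in siNONO-3.

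Among the subunits, NFKB2 moved most. NFKB2 (chr10:102394110-102402524, hg38) was at 9.29, 12.4 and 11.95 CPM in the siCtrl libraries, at 126, 115 and 122 CPM in siSFPQ-2 and at 106, 113 and 125 CPM in siSFPQ-3. All 6 siSFPQ libraries were far above all 3 controls, and the siRNAs overlapped each other. Its log2 fold change was 3.39 (SE 0.13, edgeR adjusted p = 3.72e-18). RELB, which encodes the partner of p52 (chr19:45001449-45038198), was at 3.40, 2.56 and 2.48 CPM in siCtrl, at 23.0, 15.9 and 16.7 CPM in siSFPQ-2 and at 19.2, 20.7 and 18.7 CPM in siSFPQ-3. The groups did not overlap here either, and siSFPQ-2 replicate 1 was the highest library. Its log2 fold change was 2.76 (SE 0.21, edgeR adjusted p = 4.27e-12).

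NFKB1 encodes the precursor of p50 and is the longest of these genes on the genome, with a span of 116.0 kb (chr4:102501331-102617302). It was at 41.7, 42.5 and 31.3 CPM in siCtrl, at 121, 119 and 99.6 CPM in siSFPQ-2 and at 142, 139 and 141 CPM in siSFPQ-3. Each siSFPQ library was above each control, and the siSFPQ-3 libraries were all above the siSFPQ-2 libraries. The log2 fold change of NFKB1 was 1.72 (SE 0.16, edgeR adjusted p = 3.53e-09), which is smaller than that of NFKB2 and RELB. None of the subunit and inhibitor genes among the 10 overlaps another annotated gene.

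The inhibitor genes rose by less than NFKB2 and RELB. NFKBIA encodes IkB-alpha, the inhibitor that is destroyed and made again in each round of canonical signalling (chr14:35401513-35404749). It was at 28.8, 23.0 and 24.3 CPM in siCtrl, at 99.2, 77.6 and 64.0 CPM in siSFPQ-2 and at 75.5, 91.1 and 64.9 CPM in siSFPQ-3. The knockdown libraries varied more among themselves than the controls did but stayed above every control, with a log2 fold change of 1.63 (SE 0.13, edgeR adjusted p = 1.3e-11). NFKBIE, which encodes IkB-epsilon (chr6:44258166-44265788), was at 3.04, 2.45 and 3.13 CPM in siCtrl, at 8.95, 7.44 and 7.14 CPM in siSFPQ-2 and at 7.99, 8.96 and 9.04 CPM in siSFPQ-3. Again the groups did not overlap, and the siRNAs gave like levels. Its log2 fold change was 1.51 (SE 0.21, edgeR adjusted p = 5.39e-07).

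Of the feedback genes, TNFAIP3 encodes A20, an enzyme that edits ubiquitin chains and ends NF-kB signalling (chr6:137867214-137883312). It was at 3.22, 3.58 and 2.04 CPM in siCtrl, at 39.4, 34.5 and 34.7 CPM in siSFPQ-2 and at 41.4, 42.5 and 35.7 CPM in siSFPQ-3. All 6 siSFPQ libraries were far above the controls and the siRNAs overlapped each other, and its log2 fold change of 3.71 was the largest of the 9 (SE 0.20, edgeR adjusted p = 4.87e-15). An exon of WAKMAR2 overlaps it on the opposite strand. That gene had 79 reads in all libraries together, and the strand setting of the counting is not given in the sources used here.

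BIRC3 encodes cIAP2, a ubiquitin ligase that is a textbook NF-kB target in many cells (chr11:102317450-102339403). In these cells it was barely detected, with 95 reads in all 24 libraries and at most 12 in 1 library, and it did not pass the filter on low counts. The siCtrl libraries had 11 reads together, siSFPQ-2 had 5 and siSFPQ-3 had 10, while siNONO-4 had the most, 23. The siCtrl and siSFPQ-2 libraries of replicate 2 had no read, which allows 0.307 and 0.744 CPM at most (3 counts per library, counting error only). Without the filter its log2 fold change was -0.08 for SFPQ (edgeR adjusted p = 1) and 0.89 for NONO (edgeR adjusted p = 0.54).

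ICAM1, the adhesion molecule that binds integrins of white blood cells (chr19:10271093-10286615), was at 4.47, 3.17 and 3.79 CPM in siCtrl, at 37.6, 23.6 and 33.5 CPM in siSFPQ-2 and at 48.0, 51.6 and 50.5 CPM in siSFPQ-3. The groups did not overlap, and every siSFPQ-3 library was above every siSFPQ-2 library. The log2 fold change of ICAM1 was 3.38 (SE 0.19, edgeR adjusted p = 4.37e-15). Its exons overlap LIMASI and ICAM4-AS1 on the opposite strand, which had 27 and 208 reads in all libraries.

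TNFAIP2, a gene first known as induced by TNF (chr14:103121476-103137439), went the other way. It was at 57.2, 49.7 and 62.7 CPM in siCtrl, at 33.5, 26.5 and 31.8 CPM in siSFPQ-2 and at 35.8, 31.55 and 32.8 CPM in siSFPQ-3. All 6 knockdown libraries were below all 3 controls, and TNFAIP2 fell by 0.82 on the log2 scale (SE 0.10, edgeR adjusted p = 1.79e-08).

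IER3, an immediate early gene that acts on cell survival (chr6:30743199-30744548), had the smallest and least stable rise. It was at 2.06, 2.35 and 1.68 CPM in siCtrl, at 4.09, 5.21 and 3.57 CPM in siSFPQ-2 and at 3.34, 2.46 and 2.77 CPM in siSFPQ-3. The siSFPQ-3 libraries lay just above the highest control. The log2 fold change of IER3 was 0.78 (SE 0.26, edgeR adjusted p = 0.0103), and it was 0.63 (adjusted p = 0.0736) without siCtrl replicate 3. In ASO-Ctrl, IER3 was at 5.65, 4.24 and 3.68 CPM, above siCtrl (log2 difference 1.17, SE 0.28, edgeR adjusted p = 0.04997). Set against ASO-Ctrl, the SFPQ effect on IER3 was -0.40 (edgeR adjusted p = 0.123) and no longer a rise. IER3 overlaps exons of IER3-AS1 and HCG20 on the opposite strand, with 282 and 112 reads in all libraries against 1223 of IER3 itself.

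The SFPQ siRNAs were also tested one by one. With siSFPQ-2 alone 8 genes rose and 1 fell, where 64.9% of all tested genes were called, and with siSFPQ-3 alone 7 rose and 1 fell, where 67% were called. IER3 was the gene not called with siSFPQ-3 (log2 fold change 0.51, SE 0.31, edgeR adjusted p = 0.145), against 1.05 (SE 0.30, adjusted p = 0.0035) with siSFPQ-2. A test of siSFPQ-2 minus siSFPQ-3 called ICAM1 alone, at -0.64 (SE 0.17, edgeR adjusted p = 0.00817), and 14.7% of all tested genes. Against ASO-Ctrl in place of siCtrl, a choice made after the data were seen, 7 genes rose and TNFAIP2 fell, with 71.3% of all tested genes called. There the log2 fold changes were 3.91 for TNFAIP3, 3.25 for NFKB2, 2.76 for ICAM1 and -1.21 for TNFAIP2.

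**Figure D2:**
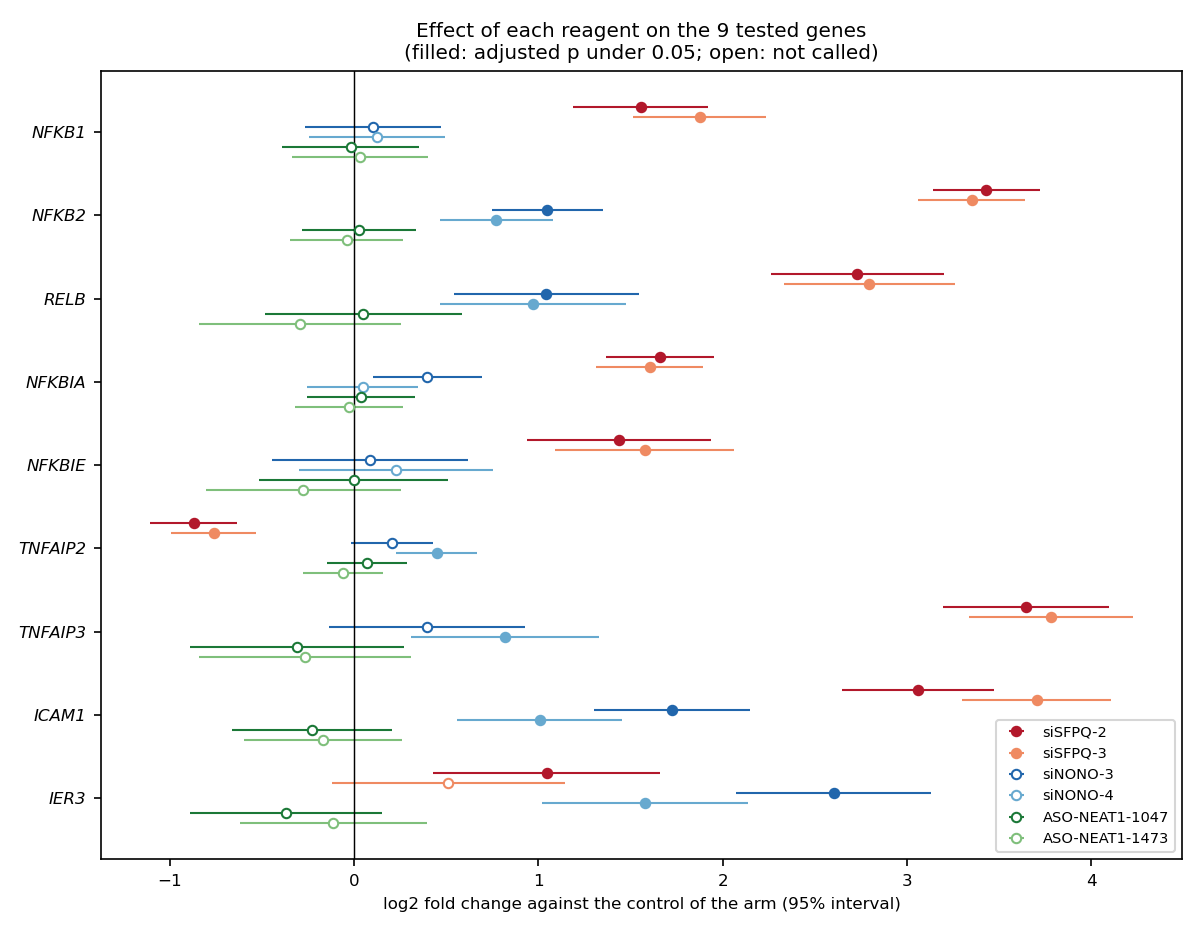
Log2 fold change of the 9 tested genes for each of the 6 reagents against the control of its arm. Points are edgeR estimates and lines are 95% intervals, with filled points for an adjusted p under 0.05. The siSFPQ points lie far to the right for TNFAIP3, NFKB2, ICAM1 and RELB, those of the ASOs against NEAT1 are all open, and for IER3 and TNFAIP2 the NONO points lie right of the SFPQ points.

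Knockdown of NONO, a partner protein of SFPQ, was followed by calls in fewer of these genes, and the rises of ICAM1, RELB and NFKB2 were smaller than with SFPQ. IER3 rose 4.26-fold, against 1.71-fold with SFPQ, ICAM1 2.58-fold, RELB 2.01-fold, NFKB2 1.88-fold and TNFAIP2 1.25-fold. NFKB1, NFKBIA, NFKBIE and TNFAIP3 were not called. Of the 9 genes tested, 5 rose and 0 fell, where 17.4% of all tested genes were called and 7.47% were called higher. The median log2 fold change was 0.61 over the 9 genes and -0.004 over all genes tested. These values come from the fit without pairing by replicate number. With the replicate number as a block, TNFAIP3 was called as well (edgeR adjusted p = 0.0208). The comparison shares its siCtrl libraries with that of SFPQ, so the effects are given side by side and are not independent.

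IER3 was at 15.9, 11.6 and 9.23 CPM in siNONO-3 and at 7.69, 4.93 and 5.34 CPM in siNONO-4, against 1.68 to 2.35 CPM in siCtrl. All 6 knockdown libraries were above the controls, and siNONO-3 was above siNONO-4 throughout. The log2 fold change of IER3 was 2.09 (SE 0.24, edgeR adjusted p = 6.54e-07) against siCtrl and 0.92 (adjusted p = 0.00383) against ASO-Ctrl, where the siNONO-4 libraries overlapped the control range. ICAM1 was at 13.8, 11.5 and 12.7 CPM in siNONO-3 and at 9.31, 6.01 and 7.69 CPM in siNONO-4, and its log2 fold change was 1.37 (SE 0.19, edgeR adjusted p = 9.78e-06). Every one of these ICAM1 values was above the siCtrl range and below that of siSFPQ-2. Against ASO-Ctrl the ICAM1 effect was 0.75 (SE 0.18, edgeR adjusted p = 0.00477), or 1.68-fold, and the siNONO-4 libraries overlapped that control.

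The noncanonical pair moved by about the same amount. NFKB2 was at 20.2, 23.6 and 25.7 CPM in siNONO-3 and at 19.5, 18.0 and 19.9 CPM in siNONO-4, with a log2 fold change of 0.91 (SE 0.13, edgeR adjusted p = 1.52e-05). RELB was at 5.43, 6.26 and 5.69 CPM in siNONO-3 and at 5.98, 5.68 and 4.82 CPM in siNONO-4, with a log2 fold change of 1.01 (SE 0.22, edgeR adjusted p = 0.00165). For NFKB2 and RELB, no NONO library overlapped siCtrl or ASO-Ctrl.

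TNFAIP2 was at 70.8, 57.1 and 67.9 CPM in siNONO-3 and at 76.3, 71.4 and 84.1 CPM in siNONO-4. The siNONO-3 range overlapped that of siCtrl and the siNONO-4 range did not. Its log2 fold change was 0.33 (SE 0.09, edgeR adjusted p = 0.0153), 0.25 (adjusted p = 0.116) without siCtrl replicate 2, and -0.06 (adjusted p = 0.71) against ASO-Ctrl, where TNFAIP2 was at 77.1, 67.5 and 78.2 CPM. The TNFAIP2 levels with NONO knockdown overlapped the range of ASO-Ctrl for both siRNAs.

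TNFAIP3 was at 3.46, 3.93 and 4.01 CPM in siNONO-3 and at 7.50, 3.97 and 3.69 CPM in siNONO-4, where replicate 1 stood apart. Its log2 difference was 0.61 with a 95% interval from 0.15 to 1.06 (edgeR adjusted p = 0.0592). Replicate numbers paired the NONO libraries, and with the replicate number as a block TNFAIP3 was called (0.61, edgeR adjusted p = 0.0208). The intervals of the other genes that were not called ran from -0.21 to 0.43 for NFKB1, from -0.04 to 0.48 for NFKBIA and from -0.30 to 0.61 for NFKBIE, all below the estimates for SFPQ knockdown. The block raised the number of all genes called in the NONO comparison from 2767 to 4262.

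With siNONO-3 alone 4 genes rose, where 19.9% of all tested genes were called, and with siNONO-4 alone 6 rose, where 11% were called. NFKB2, RELB, ICAM1 and IER3 rose with both, and TNFAIP2 (0.45, edgeR adjusted p = 0.00631) and TNFAIP3 (0.82, adjusted p = 0.0325) were called with siNONO-4 alone. With the block, siNONO-3 also called TNFAIP2 (0.21, edgeR adjusted p = 0.0458) and NFKBIA (0.40, adjusted p = 0.0227). The difference siNONO-3 minus siNONO-4 was called for IER3 (1.02, SE 0.23, edgeR adjusted p = 0.00353) and ICAM1 (0.72, SE 0.19, adjusted p = 0.0158), and for 10% of all tested genes. With the block it was called for TNFAIP2 as well (-0.24, edgeR adjusted p = 0.0259). Against ASO-Ctrl, NONO knockdown raised 5 genes, TNFAIP3 among them (0.80, edgeR adjusted p = 0.0173), with 13.9% of all tested genes called.

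The difference between the SFPQ and NONO groups, in which siCtrl cancels out, was called for all 9 tested genes, where 75.4% of all tested genes were called, 37% higher and 38.4% lower with SFPQ knockdown. Higher after SFPQ knockdown were TNFAIP3 by 3.11 (SE 0.15), NFKB2 by 2.48, ICAM1 by 2.02, RELB by 1.76, NFKB1 by 1.60, NFKBIA by 1.41 and NFKBIE by 1.35 on the log2 scale, with edgeR adjusted p-values of 5.55e-08 or less. IER3 was lower after SFPQ than after NONO knockdown by a log2 difference of -1.31 (SE 0.19, edgeR adjusted p = 3.8e-07). TNFAIP2 was lower as well, at -1.14 (SE 0.08, edgeR adjusted p = 5.14e-13). These 2 genes were thus the exceptions to the higher levels in the siSFPQ groups.

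In the libraries labelled as ASO-NEAT1, none of the 9 genes was called, with or without the replicate block. Without it, log2 differences from ASO-Ctrl ran from -0.29 for TNFAIP3 to 0.004 for NFKB1 and TNFAIP2. NFKB2 was at 13.7, 10.9 and 13.5 CPM in ASO-NEAT1-1047 and at 8.41, 13.4 and 14.0 CPM in ASO-NEAT1-1473, against 14.0, 11.4 and 11.9 CPM in ASO-Ctrl. All 9 genes overlapped between the groups. In edgeR 0% of all tested genes were called, both for the mean of the ASOs and for each ASO, and for the difference between them. At an unadjusted p under 0.05, 0 of the 9 genes and 353 of all genes stood out, and DESeq2 also called 0 genes. The 95% interval of NFKB2 ran from -0.27 to 0.26 and that of TNFAIP3 from -0.79 to 0.21. NEAT1 RNA itself was not called lower in these libraries.

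The controls of the arms differed in 1 of the 9 genes, IER3, where 0.454% of all tested genes were called. TNFAIP2 (log2 difference 0.39, edgeR adjusted p = 0.13) and ICAM1 (0.62, adjusted p = 0.368) were not called but lay in the same direction, and the TNFAIP2 ranges of the control groups did not overlap. Arm and control oligonucleotide cannot be told apart in this difference.

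Levels between genes can be compared per length, as CPM per kb of exons (RPKM). In siCtrl the order was TNFAIP2 at 11.2 RPKM, NFKBIA at 10.7, NFKB1 at 6.06, NFKB2 at 2.38, IER3 at 1.5, NFKBIE at 1.11, ICAM1 at 1.1, RELB at 0.932, TNFAIP3 at 0.586 and BIRC3 at 0.0392. TNFAIP2 and NFKBIA overlapped over the libraries, as did NFKBIE with ICAM1 and ICAM1 with RELB, and the other neighbours did not. In siSFPQ-2 the order was NFKBIA at 33.9 RPKM, NFKB2 at 25.6, NFKB1 at 17.8, ICAM1 at 9.15, TNFAIP3 at 7.2, RELB at 6.14, TNFAIP2 at 6.05, IER3 at 3.18, NFKBIE at 3.04 and BIRC3 at 0.0263. ICAM1, TNFAIP3, RELB and TNFAIP2 overlapped there from one to the next, as did IER3 and NFKBIE. NFKB2 thus passed NFKB1 per length, and TNFAIP2 moved from the top of the order to the seventh place. In siSFPQ-3 NFKBIA, NFKB2 and NFKB1 also led, at 32.6, 24.3 and 22.1 RPKM, and ICAM1 followed at 14.5.

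**Figure D3:**
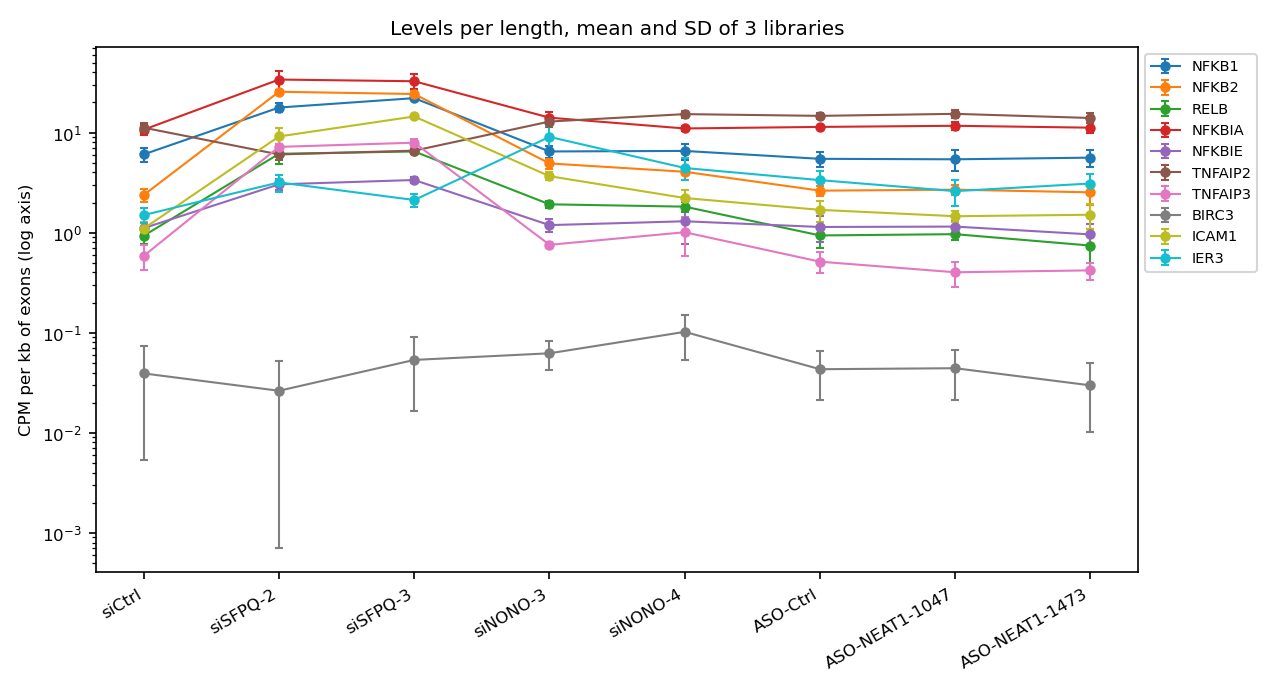
Level per length of the 10 genes in the 8 groups, as RPKM on a log axis, with the mean and SD of 3 libraries. Lines join groups for reading only. NFKB2, ICAM1, TNFAIP3 and RELB climb in the siSFPQ groups, TNFAIP2 dips there, IER3 peaks in siNONO-3, and BIRC3 is the lowest in every group.

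The other genes of the pathway were sorted into lists by role, with earlier results of these data known. Of 94 such genes, 73 could be tested. SOD2 was not tested because its symbol matched no identifier in the counts, so its level is not known here. Of the 73, 15 were below the level of the low-count filter (0.991 CPM) in at least 1 siCtrl library. Such genes could enter the test through a knockdown in which they were high. Counts are therefore given for the other 58. Of these, 37 rose and 10 fell with SFPQ knockdown (median log2 fold change 0.55), 13 rose and 1 fell with NONO knockdown (median 0.09), and none was called in the ASO-NEAT1 libraries. Over all genes tested, 34.7% were higher and 35.8% lower with SFPQ, and 7.47% were higher with NONO. These shares, here and below, are over genes not restricted by their level in siCtrl, so the sets are not filtered alike. All 5 subunit genes rose with SFPQ knockdown: besides those above, REL rose by 1.38 (SE 0.09) and RELA by 0.93 (SE 0.10) on the log2 scale. RELA was the other subunit that rose with NONO knockdown (0.46, edgeR adjusted p = 0.00206).

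Of the 6 genes listed as IkB-type inhibitors, 4 rose and 1 fell with SFPQ knockdown, where 34.7% of all tested genes were higher and 35.8% lower. BCL3 was at 1.55, NFKBIZ at 1.36 and NFKBIB at -0.38 (edgeR adjusted p = 0.0266). Since BCL3 is a nuclear cofactor of p50 and p52, these are not counts of inhibitors alone. With NONO knockdown 0 of the 6 were called, where 17.4% of all tested genes were called. Against ASO-Ctrl 1 of the 6 rose with NONO knockdown, where 13.9% of all tested genes were called. The 8 ubiquitin-editing brakes that reached the filter level in siCtrl, TNFAIP3 included, rose with SFPQ knockdown. Among them were the deubiquitinase CYLD (1.93, SE 0.17) and TNIP1, a partner of A20 (1.54, SE 0.11). With NONO knockdown CYLD was called (0.64, edgeR adjusted p = 0.00869), joined by TNFAIP3 with the replicate block. Against ASO-Ctrl 4 of the list's 9 tested genes rose with NONO knockdown, where 13.9% of all tested genes were called. The ninth, TNIP3, was below the filter level in siCtrl, with 0 reads there and 16 and 39 in siSFPQ-2 and siSFPQ-3. The kinases were divided after SFPQ knockdown. Of 8 at the filter level in siCtrl, 5 rose and 2 fell, beside 34.7% higher and 35.8% lower over all genes tested. MAP3K14, the kinase NIK of the noncanonical route, was at 1.53 and TAB3 at 0.94. CHUK, the kinase IKK-alpha, was at -0.93 and MAP3K7, the kinase TAK1, at -0.36.

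Of 12 adaptors and ubiquitin ligases at the filter level in siCtrl, 5 rose and 4 fell with SFPQ knockdown (median 0.06), close to the 34.7% and 35.8% of all genes, with TRAF5 at 1.19, and with IRAK1 at -1.12 and TRAF3, which holds NIK low, at -1.002. TRAF1, itself an NF-kB target, was below that level, with 26 reads in siCtrl and 118 and 212 in siSFPQ-2 and siSFPQ-3. NONO knockdown called 0 of the 12 and raised 1 kinase, TBK1 (0.49, edgeR adjusted p = 0.000168). Over all genes tested, 17.4% were called with NONO and 7.47% were higher. Of the 15 adaptors and ligases tested, siNONO-3 alone raised 1 and lowered 3, where 19.9% of all tested genes were called. With siNONO-4 alone 0 of the 15 were called, where 11% of all tested genes were. The 15 include TRADD, TRAF1 and RNF31, which were below the filter level in siCtrl. Of the 11 kinases tested, siNONO-3 raised 2 and siNONO-4 raised 1, beside the same 19.9% and 11%. Against ASO-Ctrl 2 of the 11 rose with NONO knockdown, where 13.9% of all tested genes were called. The 11 include IKBKG, MAP3K8 and IKBKE, which were below the filter level in siCtrl. Of 6 receptors at the filter level in siCtrl, 4 rose and 1 fell with SFPQ knockdown, beside the 34.7% and 35.8% of all genes. TNFRSF12A was at 1.24. TLR4, below that level, had 24 reads in siCtrl and 94 and 191 in siSFPQ-2 and siSFPQ-3. With NONO knockdown TNFRSF12A (1.06) and the interleukin 1 receptor IL1R1 (0.52) were among 3 that rose, and TNFRSF1A, the main TNF receptor, fell (-0.29, edgeR adjusted p = 0.045).

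Ligands were rare in siCtrl, where none of the 11 reached the filter level, so their reads are given as a description. IL1A had 6 reads in the siCtrl libraries together, 189 in siSFPQ-2 and 933 in siSFPQ-3, and 40 and 11 in siNONO-3 and siNONO-4. IL1B, the other interleukin 1 gene, had 3 reads in siCtrl, 93 in siSFPQ-2 and 231 in siSFPQ-3, and 8 and 5 in siNONO-3 and siNONO-4. TNF had 0 reads in siCtrl, which allows 0.0865 CPM at most over the group (3 counts), and 6 and 4 reads in siSFPQ-2 and siSFPQ-3, too few to test.

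Of 22 response genes at the filter level in siCtrl, ICAM1, TNFAIP2 and IER3 included, 14 rose and 3 fell with SFPQ knockdown and 10 rose with NONO knockdown. The shares over all genes tested were 34.7% higher and 35.8% lower with SFPQ, and 7.47% higher with NONO. IL32, a cytokine, rose by 3.53 (SE 0.29) with SFPQ knockdown, and CD83 fell beside TNFAIP2 (-2.32, SE 0.23). GADD45B (-0.45, edgeR adjusted p = 0.0326) fell with siSFPQ-2 (-0.94, adjusted p = 0.00106) and was at 0.04 with siSFPQ-3 (adjusted p = 0.882). The stress factor ATF3 rose by 1.68 (SE 0.25) with NONO knockdown. PLK2, a stress kinase below the filter level in siCtrl, was at 0.387 CPM there, 0.797 in ASO-Ctrl, 6.23 and 5.31 in siSFPQ-2 and siSFPQ-3, 5.30 in siNONO-3 and 0.914 in siNONO-4. ITGAX and PECAM1, markers of other cell types and also below that level, had 12 and 6 reads in siCtrl, 42 and 11 in siSFPQ-2, and 19 and 33 in siSFPQ-3.

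**Figure D4:**
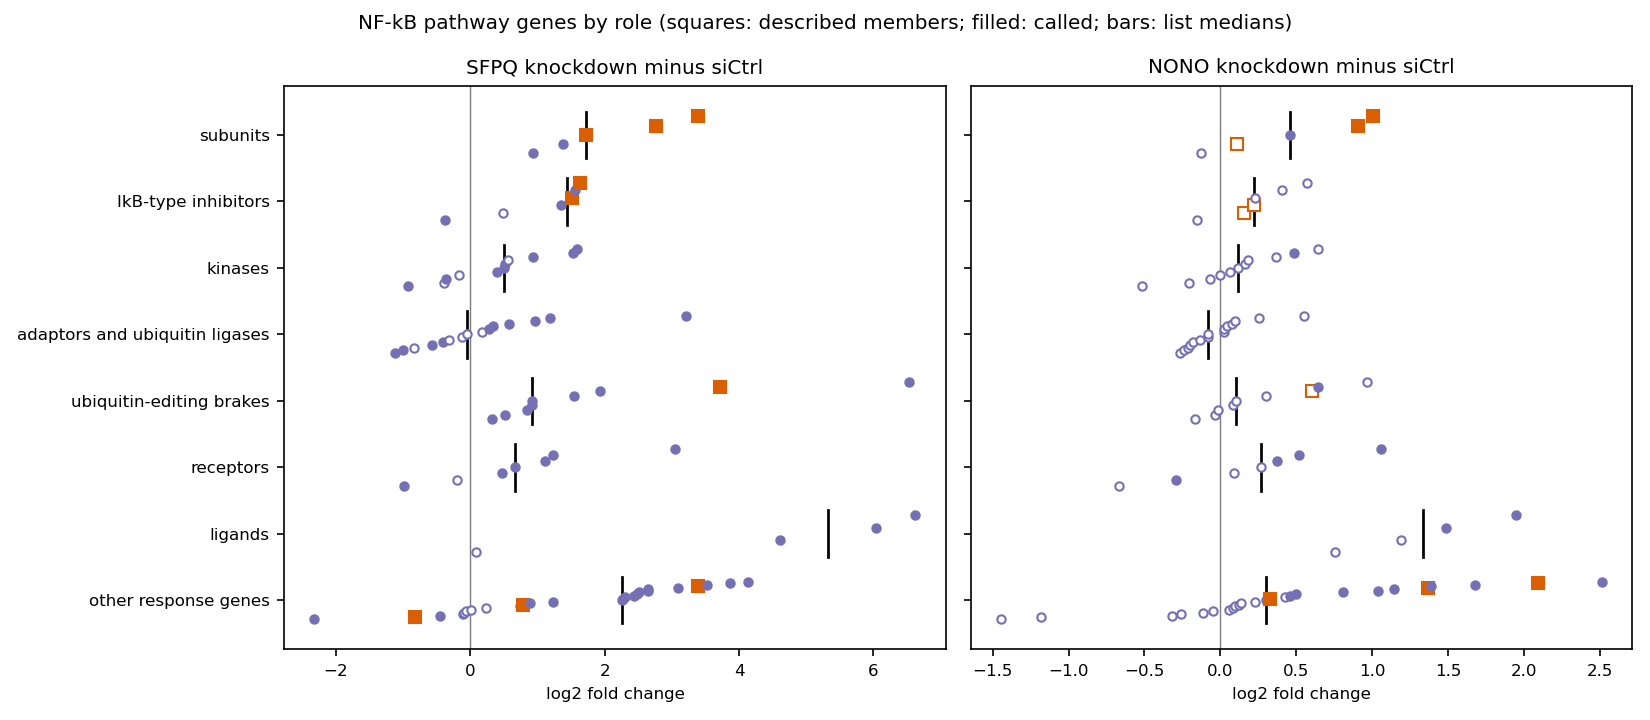
Log2 fold change of the tested pathway genes in 8 role lists after SFPQ knockdown (left) and NONO knockdown (right). Squares are genes of the 10 and circles the other genes, filled where called, and black bars are list medians. On the left, the subunits and the ubiquitin-editing brakes lie right of 0 and are filled, the adaptor list is centred near 0, and the axes of the panels differ in range. The 15 circles of genes below the filter level in siCtrl, the ligands and the brake farthest right (TNIP3) among them, are shown as a description.

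By Pearson's r of log2 CPM over the 24 libraries, among 11600 other genes, the genes most like TNFAIP3 were TNFRSF9 (0.99), FRMD4B (0.987) and ARAP2 (0.987). The gene most like RELB was NFKB2 (0.969), and those most like NFKB2 were IGF2R (0.984), SQSTM1 (0.982) and TUFT1 (0.982). UGCG was most like NFKB1 (0.987), GCH1 most like NFKBIA (0.976), IL4R most like NFKBIE (0.965), IER5 most like ICAM1 (0.977) and SUGP2 most like TNFAIP2 (0.969). IER3 had the loosest match, ISCU (0.906). These values describe the libraries only, which share their siSFPQ groups and depths, and carry no test.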

How the data were processed

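Poly(A) RNA of 24 libraries was measured. The authors deposited raw read counts per Ensembl gene, 60605 in each library, with exon positions and lengths. The submitters' processing notes name STAR 2.7.5a, cutadapt 4.2, Subread 2.0.3 (featureCounts), DESeq2 1.38.1 and build hg38. How the counting treated strand and reads with several hits, and its annotation release, is not given in the sources used here.

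Gene symbols matched 60463 identifiers. No pair of replicates was alike within sampling noise (chi-square per degree of freedom from 3.21 to 12.49). Counts were fitted with edgeR 4.0.16 in R 4.3.3, by the quasi-likelihood test with TMM scaling (factors 0.949 to 1.045), a filter on low counts by group and a robust fit of all 8 groups, and 15869 genes were tested. DESeq2 1.42.0, other scalings, no filter, fits of 9 libraries, a replicate block and leaving out each library were alternatives. The edgeR steps were also run on simulated counts in which 200 genes changed. With SFPQ knockdown 11177 genes were called, so the simulated setting differs from these data and does not show how the calls behave here. Counting intervals cover counting error only. The deviations of same-numbered libraries from their group means correlated at 0.159 to 0.376 for NONO and 0.179 to 0.487 for NEAT1, in all 9 pairs, so these numbers paired the libraries. The 10 genes, the role lists and the tests were chosen with earlier results of these data known. Named beside the 10 genes were the targets, up to 2 risen and 2 fallen genes of each list with a group mean of 5 CPM or more, and the genes of highest r. BIRC3 aside, CXCL8 and the low reads of ligands and markers were named after their values were seen. The restriction of role lists to genes at the filter level in all siCtrl libraries was added after seeing the data. Log2 CPM for r used an offset of 0.5 CPM. Promoter sequences came from RefSeq.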

Additional observations from a re-analysis of the deposited data

Results flagged for a closer look

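Among the 10 genes, the siRNAs against a target differed from each other in 3 cases, each by a test of the difference itself, where 14.7% of all tested genes differed between the SFPQ siRNAs and 10% between the NONO siRNAs. With the replicate block, TNFAIP2 also differed between the NONO siRNAs (-0.24, edgeR adjusted p = 0.0259). ICAM1 was lower with siSFPQ-2 than with siSFPQ-3 (log2 difference -0.64, edgeR adjusted p = 0.00817), with 23.6 to 37.6 CPM against 48.0 to 51.6 CPM. IER3 was higher with siNONO-3 than with siNONO-4 (1.02, edgeR adjusted p = 0.00353), with 9.23 to 15.9 CPM against 4.93 to 7.69 CPM. ICAM1 was also higher with siNONO-3 than with siNONO-4 (0.72, edgeR adjusted p = 0.0158), with 11.5 to 13.8 CPM against 6.01 to 9.31 CPM. No library of one siRNA overlapped the other in any of the 3 cases. The target RNA itself was at like mean levels with both siRNAs of a pair: SFPQ at 208 and 223 CPM, and NONO at 69.2 and 70.1 CPM. Single libraries ran from 153 to 239 CPM for SFPQ in siSFPQ-2 and from 58.7 to 76.4 CPM for NONO in siNONO-3. Protein was not measured in these data, and the cause of the differences between siRNAs was not tested.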

How the results depend on the processing

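All 16 alternatives for SFPQ knockdown kept the direction of NFKB1, NFKB2, RELB, NFKBIA, NFKBIE, TNFAIP2, TNFAIP3 and ICAM1 and their calls, with TNFAIP3 between 3.47 and 3.91, NFKB2 between 3.25 and 3.47 and TNFAIP2 between -1.21 and -0.75. IER3 lost its call without siCtrl replicate 3 (0.63, edgeR adjusted p = 0.0736) and changed sign to -0.395 against ASO-Ctrl. For NONO knockdown, NFKB2, RELB, ICAM1 and IER3 kept their calls, and TNFAIP2 lost its call without siCtrl replicate 2 (0.25, edgeR adjusted p = 0.116) and changed sign to -0.062 against ASO-Ctrl. TNFAIP3, which was not called for NONO as reported, was called with no filter (adjusted p = 0.0446), the replicate block (0.0208), DESeq2 (0.049), against ASO-Ctrl (0.0173) and without siNONO-4 replicate 2 (0.0444) or 3 (0.0313). It was farther from a call without siCtrl replicate 3 (0.36, edgeR adjusted p = 0.346) or siNONO-4 replicate 1 (0.40, 0.183), and over all 16 alternatives its adjusted p ran from 0.0173 to 0.346. The cause of these changes was not tested.

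The number of all genes called with NONO knockdown was 2767, 4262 with the replicate block, and 1661 (without siCtrl replicate 1) to 2700 with a library left out. For ASO-NEAT1 it was 0, 3 with no filter, and 0 to 19 (without ASO-Ctrl replicate 3). The replicate block raised the number of the 9 genes called from 1 to 2 for siSFPQ-2 minus siSFPQ-3, where NFKB1 joined (-0.33, edgeR adjusted p = 0.00372), and from 1 to 2 for ASO-Ctrl minus siCtrl, where TNFAIP2 joined (0.39, adjusted p = 0.0024). Against ASO-Ctrl it called NFKB1 for NONO (0.25, adjusted p = 0.0221). Replicate numbers were not taken as pairing the SFPQ libraries, since 5 of 9 correlations passed 0.1 (0.018 to 0.322, all above 0), although 7 of 9 libraries correlated best with their own number. Other scalings moved the median of all genes to between -0.043 and 0.022. Depth limits BIRC3 and most ligands, and the siSFPQ-2 group holds the shallowest library.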

Other observations

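Some of the 10 genes followed the replicate number across groups. NFKB1 was highest in replicate 1 in 7 of 8 groups and lowest in replicate 3 in 7 of 8. TNFAIP2 was lowest in replicate 2 in 7 of 8 groups, NFKBIA in 6 of 8, and NFKBIE and ICAM1 were highest in replicate 1 in 6 of 8. What a replicate number stands for is not given in the labels, and this pattern was not tested.

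A pair of further ligands had most of their reads in the siSFPQ libraries, at counts too low to test. LTA had 0 reads in siCtrl, which allows 0.0865 CPM at most (3 counts over the group), 11 in siSFPQ-2, 10 in siSFPQ-3, and 4 in the other groups together. LTB had 0 reads in siCtrl, 10 in siSFPQ-2, 4 in siSFPQ-3 and 4 in siNONO-4. NEAT1 RNA was at 644 and 651 CPM in siSFPQ-2 and siSFPQ-3, against 309 CPM in siCtrl. CXCL8, an NF-kB response gene that encodes interleukin 8, was already at 385 CPM in siCtrl and was at 580 and 721 CPM in siSFPQ-2 and siSFPQ-3, the highest group means of these libraries for this gene.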
